A study of Caenorhabditis elegans with 48 samples.

Results

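The genes described here are the autophagy, TOR and AMP-kinase genes of Caenorhabditis elegans, given as a list of gene names. The list held 38 genes, and all 38 names matched a WBGene identifier in the gene name table. Rows in both count tables were found for 37 of them, and epg-8, a subunit of the Beclin complex, was not analysed here. They are set here among 19454 genes counted in mRNA-seq and 10741 in Ribo-seq. Polyadenylated RNA (mRNA-seq) and ribosome-protected RNA fragments (Ribo-seq, called footprints here) were sequenced from worms in 24 libraries per assay. In one experiment, 6 Starved samples were set against 6 Fed samples. In the other, knockdown of E02H1.1 and knockdown of C27F2.4 were each set against an Empty_vector control, with 4 samples per group. E02H1.1 and C27F2.4 are the worm relatives of DIMT1 and BUD23, enzymes that methylate the RNA of the small ribosomal subunit. Every sample is labelled young adult, and the labels state neither strain and genotype, nor the length of starvation, nor how the knockdowns were made. Nothing in the labels says that samples of a group came from separate cultures, so every p-value rests on how far these libraries spread, which may be technical.

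Autophagy encloses cytoplasm in a membrane, the autophagosome, and delivers it to the lysosome, where the contents are broken down and reused. When nutrients are plentiful the TOR kinase holds the pathway back, and when energy is low the AMP-activated kinase counters TOR and promotes autophagy. In C. elegans the pathway clears maternal granules from embryonic cells, sustains larvae that hatch without food, and is needed for several forms of long life.

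Levels are given in CPM, the usual measure of counts relative to library size, with libraries scaled by the TMM method within each experiment and assay. Translation efficiency (TE) is the log2 ratio of footprint CPM to mRNA CPM of the library with the same name. Changes are log2 fold changes ± SE from edgeR's quasi-likelihood test, two-sided, with Benjamini-Hochberg adjustment over all genes tested. A gene passed the threshold at an adjusted p under 0.05, and only such genes are said to have risen or fallen. All 37 genes with rows passed the filter on low counts in every comparison.

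Libraries held 19238095 to 22837203 counts in mRNA-seq and 3905609 to 11746420 in Ribo-seq, so footprint values carry more counting error. The targeted genes followed their labels: mRNA of E02H1.1 went from 67.8 ± 5.42 CPM in Empty_vector to 19.1 ± 1.61 CPM in its own knockdown (mean ± SD, n = 4), and mRNA of C27F2.4 from 62.1 ± 4.55 to 31.4 ± 1.93 CPM. Their footprint log2 changes were -1.99 ± 0.11 and -1.59 ± 0.08. In the E02H1.1 knockdown C27F2.4 also fell in mRNA, with a log2 change of -0.18 ± 0.07 (edgeR adjusted p = 0.0317), beside -0.00 ± 0.07 in footprints. In the C27F2.4 knockdown the changes of E02H1.1 did not pass, at -0.13 ± 0.07 in mRNA and -0.06 ± 0.08 in footprints. The stage label did not match the stage markers. Summed over 14 yolk, adult cuticle and sperm transcripts, mRNA-seq libraries held only 2.61 to 6.21 CPM, and 2 to 5 of these transcripts were at 0 in every library of a group. Summed over 7 transcripts of the embryonic sheath and cuticle, the same libraries held 3519 to 4837 CPM. Starved 1 and Starved 5 mostly differed more from Starved 2, 3, 4 and 6 than those did from each other. A chi-square statistic per gene was 6.63 to 15.5 beside 3.55 to 8.34 in mRNA, and 2.12 to 3.88 beside 1.71 to 2.39 in footprints. Empty_vector C stood apart from its group: a chi-square statistic per gene was 10.1 to 10.5 between its mRNA and that of the other 3 controls, and 3.65 to 4.99 among those 3, and in footprints 4.40 to 5.37 beside 1.44 to 1.88. The footprints of C27F2.4 A did likewise, at 4.48 to 8.67 beside 2.31 to 2.57, and its mRNA at 6.08 to 13.1 beside 5.20 to 6.02. Whole-worm samples hold many tissues, and in such samples fewer cells of a type and less RNA per cell cannot be told apart.

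Changes in these 37 genes were small. No gene reached an absolute log2 fold change of 0.5 in any assay of any comparison, and the largest among those past the threshold was -0.48, for the mRNA of atg-10 in the E02H1.1 knockdown. The share of all genes that reached 0.5 is not given here, so small changes are not shown to be particular to these 37. The heat map of fold changes shows which genes moved in which assay.

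**Figure D1:**
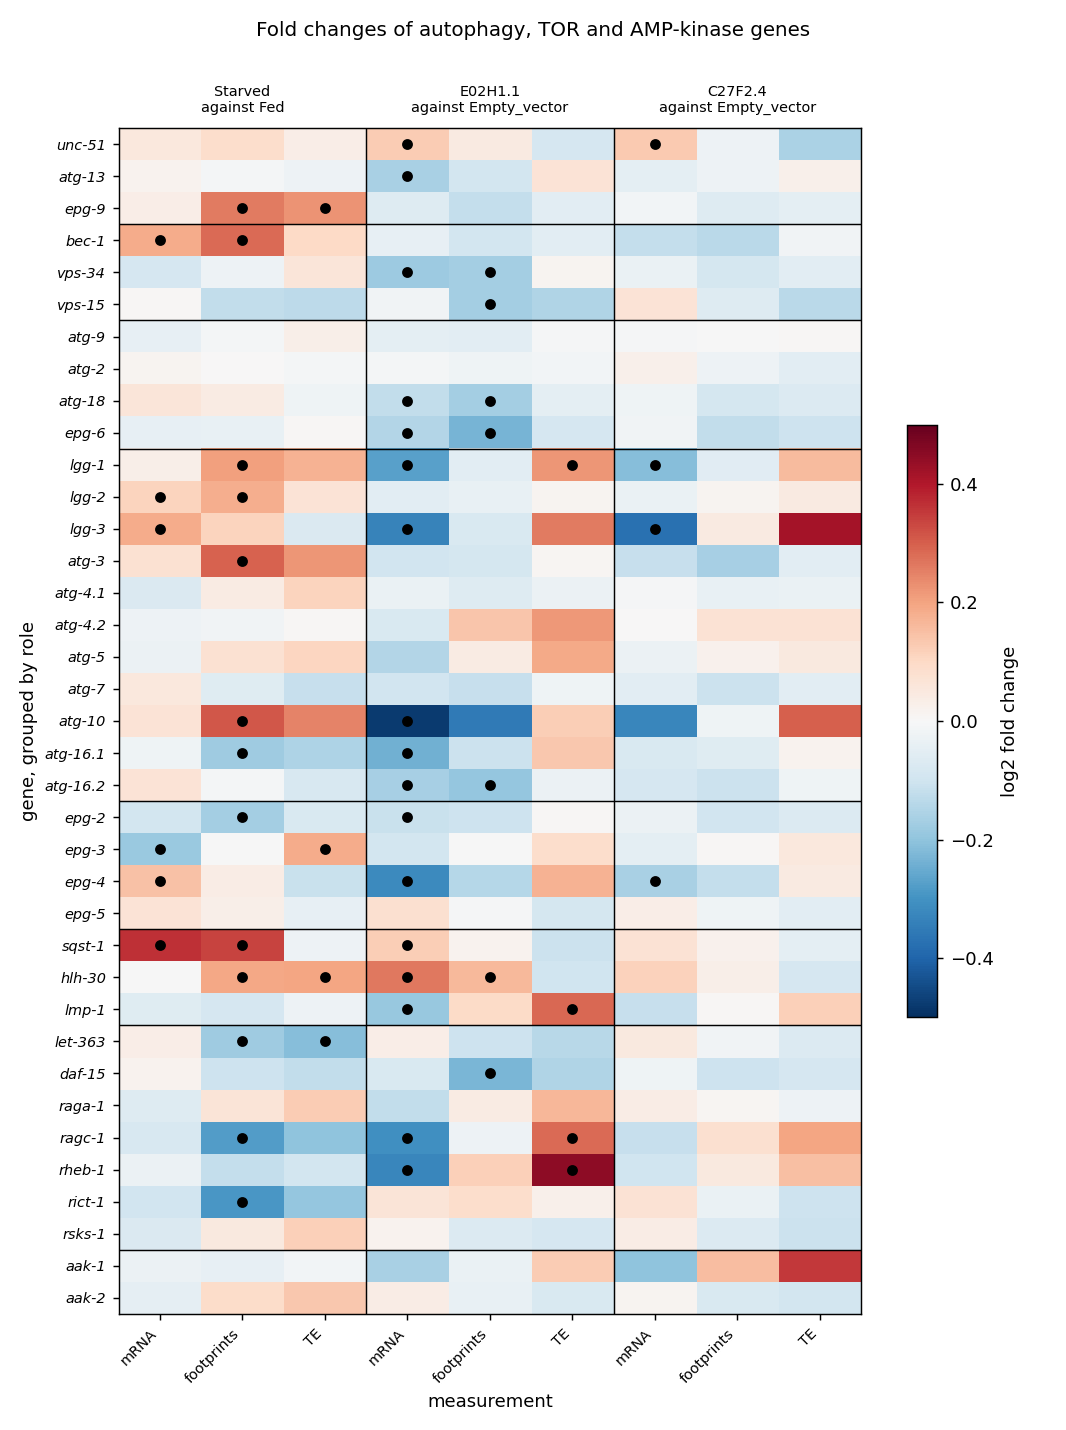
Log2 fold changes of the 37 genes (rows, grouped by role) in mRNA-seq, footprints and TE (columns) for the 3 comparisons against Fed or Empty_vector. Colour gives the log2 fold change from edgeR and a dot marks an adjusted p under 0.05: starvation columns hold 6, 13 and 4 dots, E02H1.1 columns 17, 7 and 4, and C27F2.4 columns 4, 0 and 0.

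The amount of footprint per mRNA differed widely between these genes. In Fed worms the median TE of the 37 genes was -0.01, beside -0.04 for all 10572 genes measured in both assays, and 20 of the 37 lay above that median. The gene for EPG-2, an adaptor that links maternal granule proteins to the autophagosome, had a mean TE of 1.38 ± 0.05 (SD, n = 6), above 97.8% of genes. The gene for ATG-7, the activating enzyme of both ubiquitin-like conjugation systems, followed at 0.92 ± 0.13. At the other end, epg-9, which encodes a partner of the initiating kinase UNC-51, had a mean TE of -1.28 ± 0.12, above only 10.1% of genes. The small GTPase gene rheb-1, whose product activates TOR, stood at -1.07 ± 0.17, and atg-16.2, part of the complex that attaches LGG-1 to membranes, at -1.02 ± 0.16. The last 2 lay within their spread of each other. Genes of one complex did not share a level: for the TOR kinase let-363 the mean TE was -0.05 ± 0.05, whereas for daf-15, which encodes its partner Raptor, it was -0.55 ± 0.06.

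**Figure D2:**
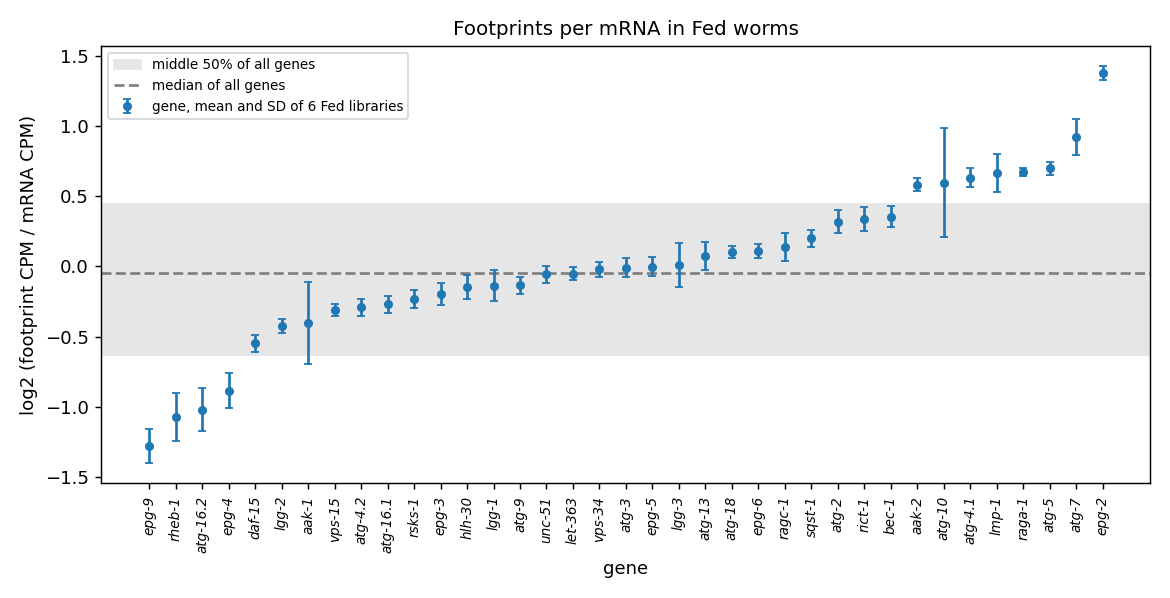
Mean log2 ratio of footprint CPM to mRNA CPM in Fed worms (vertical axis) for the 37 genes in order (horizontal axis), with bars for the SD of 6 libraries. The dashed line and the grey band give the median and the middle 50% of all 10572 genes; epg-2 at 1.38 and epg-9 at -1.28 lie outside the band.

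After starvation the cargo receptor gene sqst-1, the Beclin gene bec-1 and the ATG8 gene lgg-2 rose in mRNA and in footprints, and the footprints of 3 TOR genes fell. In mRNA, 5 of 37 genes rose and 1 fell, where 11.8% of all 13293 genes tested rose and 10.2% fell. In footprints, 8 rose and 5 fell, where 13.9% of 10589 genes rose and 14.7% fell. In TE, 3 rose and 1 fell, where 2.54% of 10572 genes rose and 3.75% fell. The rises are 13.5% of the 37 in mRNA and 21.6% in footprints. The median change was 0.01 in mRNA and 0.00 in footprints, as over all genes (0.00 and 0.01). The mRNA split turned with the scaling: with library totals alone, 2 rose (sqst-1 and bec-1) and 5 fell, among them vps-34, epg-2, lmp-1 and rsks-1, which did not pass under TMM. Without Starved 1 and Starved 5, 6 rose and 1 fell in mRNA, and 8 rose and 5 fell in footprints.

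The largest rise was in sqst-1 (WBGene00011737), which encodes SQST-1, the homologue of the ubiquitin-binding receptor p62 that brings protein cargo to the autophagosome and is itself degraded with it. Its mRNA had a lowest, median and highest level of 439.9, 484 and 512 CPM in the 6 Fed libraries and of 587, 621 and 662 CPM in the 6 Starved ones. Its footprints went from 531, 551 and 578 CPM to 669.8, 692 and 751 CPM. Every Starved library stood above every Fed library in both assays. The log2 changes were 0.37 ± 0.04 in mRNA (adjusted p = 5.31e-08) and 0.34 ± 0.04 in footprints (adjusted p = 9.4e-08), or 28.8% and 26.4% more. Its TE change was -0.03 ± 0.06 (adjusted p = 0.843).

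The ATG8 proteins LGG-1 and LGG-2 are joined to lipid on the growing autophagosome and are the usual markers of it. The mRNA of lgg-1 (WBGene00002980) ran through 1078, 1187 and 1215 CPM in Fed and 1129, 1184 and 1275 CPM in Starved worms (lowest, median and highest), and the 2 groups overlapped. Its footprints ran through 1009, 1055 and 1118 CPM in Fed and 1160.2, 1227 and 1269 CPM in Starved worms, with no overlap. The log2 changes were 0.03 ± 0.04 in mRNA (adjusted p = 0.614) and 0.21 ± 0.04 in footprints (adjusted p = 0.000300). The TE change of 0.18 ± 0.06 missed the threshold (adjusted p = 0.0562). It passed with same-named libraries of the 2 assays blocked as 1 culture (adjusted p = 0.0299), under DESeq2, with library totals, and without Fed 1 or Starved 3.

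For lgg-2 both assays rose. Its mRNA levels were 374, 387 and 402 CPM in Fed and 410.3, 421 and 431 CPM in Starved worms (lowest, median and highest), a log2 change of 0.11 ± 0.03 (adjusted p = 0.0119). Its footprints stood at 279, 286 and 311 CPM and 318, 329 and 339 CPM, a change of 0.18 ± 0.04 (adjusted p = 0.00118). Neither assay overlapped between the groups, and the TE change of 0.07 ± 0.05 did not pass (adjusted p = 0.489). With library totals in place of TMM the mRNA change was 0.08 and missed the threshold.

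Of the 11 genes of the ATG8 and ATG12 conjugation systems, 2 rose in mRNA and none fell, and 4 rose and 1 fell in footprints. The second of the 2 in mRNA was lgg-3, the worm ATG12, with levels of 29.4, 33.2 and 37.4 CPM in Fed and 32.9, 38.6 and 41.9 CPM in Starved worms, which overlapped. Its log2 change was 0.19 ± 0.06 (adjusted p = 0.0321). It missed the threshold in 7 of 12 fits that left out 1 library, without Fed 1, 2, 4 or 6, or Starved 2, 3 or 4, with an adjusted p of up to 0.0952. In footprints, atg-3, the conjugating enzyme of LGG-1, rose from 55.4, 60.1 and 69.03 CPM to 71.5, 73.8 and 86.3 CPM with no overlap, a log2 change of 0.30 ± 0.06 (adjusted p = 0.000232). The footprints of atg-10, the conjugating enzyme of LGG-3, were few and went from 9.06, 11.1 and 15.8 CPM to 13.7, 15.2 and 16.7 CPM. Those ranges overlapped, and the log2 change of 0.31 ± 0.12 (adjusted p = 0.0374) missed the threshold under DESeq2 and in 8 of 12 fits that left out 1 library, without Fed 3, 4, 5 or 6, or Starved 2, 3, 4 or 6 (adjusted p up to 0.0945). The footprints of atg-16.1, a subunit of the complex that directs conjugation, fell by 0.18 on the log2 scale, a call lost without Fed 4, Fed 5, Starved 4 or Starved 6.

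In the kinase complexes that begin autophagy, bec-1 rose in both assays. BEC-1 is Beclin, the scaffold of the lipid kinase complex that marks the site of a new autophagosome. The mRNA of bec-1 stood at 54.8, 57.6 and 60.4 CPM in Fed and 60.97, 65.3 and 70.2 CPM in Starved worms (lowest, median and highest), without overlap. Its footprints stood at 66.8, 73.5 and 79.5 CPM and 76.1, 94.4 and 97.8 CPM, where 1 Starved library lay inside the Fed range. The log2 changes were 0.18 ± 0.05 (adjusted p = 0.00402) and 0.28 ± 0.06 (adjusted p = 0.000456). The lipid kinase vps-34 and its partner vps-15 did not pass in either assay, with mRNA changes of -0.09 ± 0.04 and 0.01 ± 0.04. In the UNC-51 complex, epg-9 rose in footprints by 0.26 on the log2 scale, from 49.4 ± 4.91 to 59.4 ± 1.35 CPM (mean ± SD, n = 6), and unc-51 and atg-13 did not pass in either assay. No change past edgeR's threshold was found in mRNA, footprints or TE among atg-9, atg-2, atg-18 and epg-6, which supply and mark the growing membrane; their log2 changes lay between -0.04 and 0.06 in mRNA and between -0.04 and 0.04 in footprints. In each of the 3 measures 0 of these 4 had an unadjusted p under 0.05 and DESeq2 called 0.

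The 4 EPG genes listed here, which have no counterpart in yeast, did not move together in mRNA, where 1 rose and 1 fell. EPG-3, the homologue of VMP1, acts where the autophagosome parts from the endoplasmic reticulum. Its mRNA fell by 12.2%, from 172, 181 and 189 CPM in Fed to 150.3, 159 and 165 CPM in Starved worms, with no overlap (log2 change -0.19 ± 0.04, adjusted p = 0.000261). Its footprint change was -0.00 ± 0.05. EPG-4 is the homologue of EI24, a membrane protein of the endoplasmic reticulum. The mRNA of epg-4 rose from 85.6, 90.7 and 94.02 CPM to 88.1, 102 and 108 CPM, ranges that overlapped, by 0.15 ± 0.05 (adjusted p = 0.0173). That call was lost with library totals (log2 change 0.12, adjusted p = 0.0680) and without Fed 4, or Starved 3 or 4, where the adjusted p reached 0.0544. The footprints of epg-2 fell by 0.17 on the log2 scale, from 2628 ± 67.3 to 2336 ± 100.02 CPM (mean ± SD, n = 6). The fourth gene, epg-5, whose product tethers autophagosomes to lysosomes, did not pass in either assay.

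HLH-30, the homologue of TFEB, is the transcription factor that switches on autophagy and lysosome genes. The mRNA of hlh-30 (WBGene00020930) stood at 291, 315 and 322 CPM in Fed and 274, 312 and 351 CPM in Starved worms, overlapping groups with a log2 change of -0.00 ± 0.04. Its footprints stood at 264, 286 and 290.4 CPM and 303, 318 and 339 CPM, without overlap, a change of 0.19 ± 0.04 (adjusted p = 0.000688). TE went from -0.24, -0.16 and -0.03 to -0.16, 0.06 and 0.31 (lowest, median and highest), by 0.20 ± 0.06 (adjusted p = 0.0475). The TE groups overlapped, and the TE call was lost without a count filter (adjusted p = 0.0595) and in 9 of 12 fits that left out 1 library, without Fed 1, 2, 3, 4 or 5, or Starved 2, 4, 5 or 6 (adjusted p up to 0.186). The lysosomal membrane gene lmp-1 did not pass, with log2 changes of -0.06 ± 0.04 in mRNA and -0.09 ± 0.05 in footprints.

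None of the 7 TOR genes and neither AMP-kinase catalytic subunit passed the threshold in mRNA after starvation, where edgeR gave 1 of these 9 an unadjusted p under 0.05 and DESeq2 called 0. In footprints 3 of the 7 TOR genes fell and none rose. The TOR kinase gene let-363 (WBGene00002583) had mRNA levels of 284, 298 and 301 CPM in Fed and 292, 304 and 311 CPM in Starved worms, with overlap and a change of 0.04 ± 0.03. Its footprints went from 268, 285 and 301 CPM to 231, 257 and 268 CPM, lower in every Starved library, by -0.18 ± 0.05 (adjusted p = 0.00283). Its TE went from -0.12, -0.05 and 0.01 to -0.38, -0.24 and -0.17, also without overlap, by -0.21 ± 0.06 (adjusted p = 0.0141). Without Starved 2 the TE change was -0.18 and missed the threshold, with an adjusted p of 0.0629.

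RICT-1 is Rictor, the subunit that defines the other TOR complex, and RAGC-1 is a Rag GTPase that brings TOR to the lysosome when amino acids are present. The footprints of rict-1 stood at 66.1, 77.5 and 80.8 CPM in Fed and 50.4, 62.7 and 74.8 CPM in Starved worms, overlapping ranges, with a change of -0.29 ± 0.07 (adjusted p = 0.00164). The footprints of ragc-1 fell by 0.28 on the log2 scale, from 106 ± 3.23 to 87.4 ± 4.82 CPM (mean ± SD, n = 6), without overlap. For its partner raga-1 the footprint change was 0.06 ± 0.05, on the other side of 0 and not past the threshold. The catalytic AMP-kinase subunit gene aak-2 stood at 118, 126 and 132 CPM in Fed and 112, 122 and 129.9 CPM in Starved mRNA, and at 184, 186 and 197 CPM and 195, 199 and 206 CPM in footprints. Both assays overlapped, with changes of -0.05 ± 0.04 and 0.09 ± 0.04 (adjusted p = 0.479 and 0.110). Its TE change of 0.14 ± 0.06 passed, of the alternatives run, with library totals only, where it was 0.17.

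**Figure D3:**
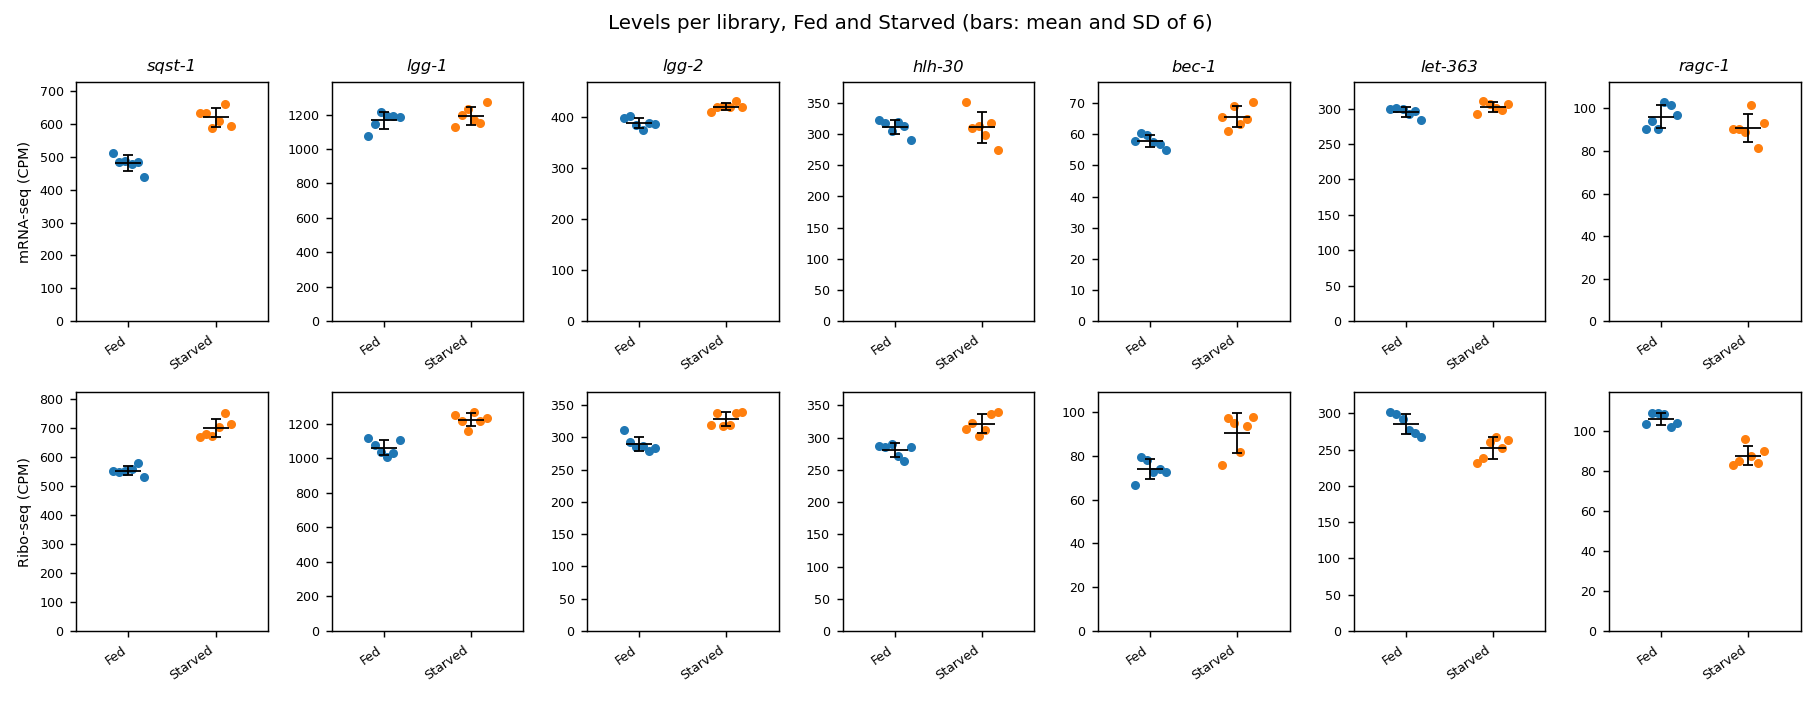
Levels in CPM (vertical axes, from 0) of 7 genes in each Fed and Starved library, with mRNA-seq in the upper row and Ribo-seq in the lower row. Points are libraries and bars the mean and SD of 6. The Fed and Starved points of sqst-1 and lgg-2 do not overlap in either assay; those of lgg-1, hlh-30, let-363 and ragc-1 overlap in mRNA and not in footprints.

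The 4 genes past the TE threshold after starvation were epg-9, epg-3, hlh-30 and let-363. TE of epg-9 went from -1.44, -1.26 and -1.15 in Fed to -1.11, -1.04 and -0.98 in Starved worms (lowest, median and highest), without overlap, by 0.22 ± 0.07 (adjusted p = 0.0382). TE of epg-3 went from -0.30, -0.20 and -0.11 to -0.11, -0.01 and 0.10, with overlap, by 0.18 ± 0.06 (adjusted p = 0.0405). The epg-9 call was lost in 8 of 12 fits that left out 1 library, without Fed 1, 4 or 5, or Starved 2, 3, 4, 5 or 6 (adjusted p up to 0.1003). The epg-3 call was lost in 7, without Fed 2, 3, 4 or 5, or Starved 4, 5 or 6 (up to 0.132), and without a count filter (0.0532). With same-named libraries blocked as 1 culture, 7 genes passed: those 4 with lgg-1, atg-3 and ragc-1, so that 5 were higher and 2 lower. With library totals 7 were higher and 1 lower, and without Starved 1 and Starved 5 only hlh-30 and let-363 passed.

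Genes around the same pathways, which are not among the 37, were counted too. Of 5 transcription factors of autophagy, 3 rose and 1 fell in mRNA, and 3 rose and none fell in footprints. The largest was mxl-3, a MAX-like repressor that opposes HLH-30 in fed worms, which rose by 0.59 ± 0.06 in mRNA (adjusted p = 1.97e-08) and 0.61 ± 0.07 in footprints (adjusted p = 7.22e-09). The mRNA of mxl-2, which pairs with the Mondo factor MML-1, rose by 0.27 ± 0.05 (adjusted p = 7.09e-05). Of 7 cargo selection genes, 1 rose and 1 fell in each assay: dct-1, a mitophagy receptor, rose by 0.20 ± 0.04 and 0.21 ± 0.05, and sepa-1, the receptor of maternal granule proteins, fell by 0.32 in mRNA and by 0.42 in footprints on the log2 scale. Among 9 further AMP-kinase genes, 8 tested in mRNA and 7 in footprints, the upstream kinase par-4 (LKB1) had changes of -0.28 ± 0.05 in mRNA and -0.29 ± 0.06 in footprints, and the subunit gene aakb-1 rose by 0.14 ± 0.05 and 0.16 ± 0.06. Of 13 further TOR genes, 2 fell and none rose in mRNA, led by akt-1 at -0.19 ± 0.04, and 1 rose and 2 fell in footprints. In TE 1 of the 13 rose, the Ragulator subunit gene lmtr-5, by 0.33 ± 0.10. Of 10 fusion genes, 1 rose and 1 fell in each assay. The small GTPase gene rab-7 rose by 0.23 ± 0.04 in footprints and 0.20 ± 0.06 in TE, and vps-18, of the tethering complex, had changes of -0.22 ± 0.05 in mRNA and -0.15 ± 0.06 in footprints.

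Tissue markers moved in the same comparison. Of 9 germline markers tested, 7 fell in footprints, and their sum ran from 1583 to 1783 CPM in Fed and from 1221 to 1465 CPM in Starved libraries. Of 7 maternal and early embryo markers, 6 fell and 1 rose in footprints, with sums of 1216 to 1461 CPM and 1060.3 to 1237 CPM. Of 8 body-wall muscle markers, 7 rose in mRNA, with sums of 2985 to 3177 CPM in Fed and 3206 to 4449.7 CPM in Starved libraries. In footprints 2 of the 8 rose and 1 fell, with overlapping sums of 3563 to 4153 CPM and 3331 to 4136 CPM. In mRNA, 1 of 9 germline markers rose and 2 fell, and none of 8 maternal and early embryo markers passed. Of 7 embryonic sheath and cuticle markers, 3 rose and none fell in footprints, and none passed in mRNA. In mRNA 2 of 8 intestine markers rose, and 2 of 6 hypodermis markers rose and 1 fell. In footprints 1 of 8 intestine markers rose and 1 of 4 hypodermis markers fell. None of 8 neuronal markers passed in either assay. None of these markers was at 0 in every library of a group, and their part in the changes of the autophagy and TOR genes was not tested.

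In the E02H1.1 knockdown the mRNA of genes across the autophagy pathway was lower, among them lgg-1, lgg-3, epg-4 and lmp-1, while that of hlh-30, sqst-1 and unc-51 was higher. In mRNA, 3 of 37 genes rose and 14 (37.8%) fell, where 19.9% of 13637 genes tested rose and 19.6% fell. The median change was -0.10, beside -0.01 over all genes, and 29 of the 37 lay below 0. In footprints 1 rose and 6 fell, where 10.7% of 10736 genes rose and 9.24% fell, with a median of -0.06 beside 0.00. With library totals 1 rose and 3 fell in footprints. Without Empty_vector C, 2 rose and 12 fell in mRNA, with atg-10, epg-2 and sqst-1 lost, and none rose and 4 fell in footprints, with hlh-30, atg-16.2 and vps-15 lost. In TE 3 then rose, with rheb-1 lost. In TE 4 rose and none fell, where 5.59% of 10714 genes rose and 5.24% fell. The 14 genes that fell in mRNA are 2 TOR genes and 12 autophagy genes. In both assays 5 genes passed in one direction: hlh-30 higher, and vps-34, atg-18, epg-6 and atg-16.2 lower.

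All 11 conjugation genes had an mRNA change below 0, and 5 of them passed, where 19.6% of all 13637 genes tested fell. Most of the other members also lay below 0, and this list was chosen with earlier results of these data known. The mRNA of lgg-1 was at 1216, 1339.8, 1405 and 1326 CPM in Empty_vector libraries A to D and at 1136, 1061, 1096 and 1084 CPM in E02H1.1 libraries A to D. All 4 knockdown libraries were below all 4 controls, and lgg-1 fell by 17.2% (log2 change -0.27 ± 0.04, adjusted p = 1.38e-05). Its footprints were at 1221, 1204, 1263 and 1213 CPM and at 1142, 1175, 1193 and 1218 CPM, overlapping groups with a change of -0.05 ± 0.04 (adjusted p = 0.422). TE of lgg-1 was 0.01, -0.15, -0.15 and -0.13 in controls and 0.01, 0.15, 0.12 and 0.17 in the knockdown, a change of 0.22 ± 0.06 (adjusted p = 0.0113). Without E02H1.1 B or D the TE call was lost, with an adjusted p of up to 0.0633. Control library A stood apart from the other controls in TE and lay within 0.01 of the lowest knockdown library.

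For lgg-3 the mRNA was at 38.9, 34.03, 37.7 and 39.2 CPM in controls and at 35.3, 27.9, 30.6 and 25.2 CPM in the knockdown. The groups overlapped through E02H1.1 A, and the log2 change was -0.33 ± 0.09 (adjusted p = 0.00351). The low-count gene atg-10 was at 7.36, 8.04, 10.9 and 8.36 CPM in controls and at 5.34, 6.20, 7.20 and 6.12 CPM in the knockdown. That change of -0.48 ± 0.14 (adjusted p = 0.0100) was -0.35 without Empty_vector C, the highest control, and then missed the threshold (adjusted p = 0.0696). The mRNA of both ATG16 genes also fell, atg-16.1 by 0.24 and atg-16.2 by 0.17 on the log2 scale. The other ATG8 gene, lgg-2, was at 444, 445, 457 and 441 CPM in controls and 434, 423, 427 and 440.3 CPM in the knockdown. Its groups did not overlap by a narrow gap, and the change of -0.05 ± 0.04 missed the threshold (adjusted p = 0.289). In footprints lgg-2 was at 322, 306, 307 and 304 CPM and 288, 294, 315 and 310.3 CPM, with overlap and a change of -0.04 ± 0.05, and its TE change was 0.01 ± 0.05.

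The largest of the 3 rises in mRNA was that of hlh-30. The mRNA of hlh-30 was at 289, 288, 275 and 297 CPM in Empty_vector A to D and at 336, 347, 359 and 338 CPM in E02H1.1 A to D. Its footprints were at 239, 252, 228 and 253 CPM and at 274, 268, 279.5 and 266 CPM. Every knockdown library was above every control in both assays, with changes of 0.26 ± 0.04 in mRNA (adjusted p = 1.72e-05) and 0.16 ± 0.05 in footprints (adjusted p = 0.0197). The footprint call was lost without Empty_vector C or E02H1.1 A, with an adjusted p of up to 0.0650. The TE change of hlh-30 was -0.10 ± 0.06 (adjusted p = 0.297).

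The mRNA of sqst-1 was at 533, 543, 502 and 552 CPM in controls and 585, 584, 569 and 585 CPM in the E02H1.1 knockdown, all 4 above all controls, with a change of 0.12 ± 0.04 (adjusted p = 0.0163). Without Empty_vector C or E02H1.1 B the adjusted p was up to 0.0520. Its footprints were at 671, 683, 675 and 703 CPM and 721, 654, 685 and 705 CPM, with overlap and a change of 0.02 ± 0.04, and its TE change was -0.11 ± 0.06 (adjusted p = 0.239). The initiating kinase gene unc-51 rose in mRNA by 0.13 on the log2 scale, while its partner atg-13 fell by 0.16. Those calls were lost without Empty_vector A, and that for unc-51 also without Empty_vector B. The mRNA of epg-4 was at 99.9, 106, 100.4 and 101 CPM in controls and 84.4, 82.3, 79.9 and 79.97 CPM in the knockdown, without overlap, a change of -0.32 ± 0.05 (adjusted p = 3.07e-05). The mRNA of lmp-1 fell by 0.19 and that of the adaptor gene epg-2 by 0.11 on the log2 scale. The call for epg-2 was lost under DESeq2 and without Empty_vector A or C or E02H1.1 A or B.

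Of the 7 TOR genes, the small GTPase genes ragc-1 and rheb-1 fell in mRNA and rose in TE in this knockdown. The mRNA of ragc-1 was at 95.99, 94.3, 98.6 and 95.8 CPM in controls and at 76.7, 78.2, 77.5 and 78.2 CPM in the knockdown, a change of -0.31 ± 0.05 (adjusted p = 1.83e-05). The mRNA of rheb-1 was at 53.1, 51.1, 56.5 and 49.1 CPM and at 39.7, 39.7, 44.4 and 43.4 CPM, a change of -0.33 ± 0.07 (adjusted p = 0.000367). Neither pair of groups overlapped. In footprints the changes were -0.03 ± 0.07 for ragc-1 and 0.12 ± 0.11 for rheb-1, neither past the threshold. TE of rheb-1 went from -1.52, -1.38, -1.70 and -1.26 in controls to -1.06, -0.90, -0.91 and -1.22 in the knockdown, by 0.45 ± 0.12 (adjusted p = 0.0161). TE of ragc-1 went from -0.45, -0.26, -0.34 and -0.29 to -0.14, -0.07, 0.07 and -0.08, by 0.28 ± 0.08 (adjusted p = 0.0153), and neither gene overlapped between the groups in TE. Without Empty_vector C or E02H1.1 B the call for rheb-1 was lost (adjusted p up to 0.0762), as was that for ragc-1 without Empty_vector A or E02H1.1 C (up to 0.0596).

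The lysosomal gene lmp-1 had the same arrangement of assays. Its TE was 0.49, 0.60, 0.69 and 0.64 in controls and 0.82, 0.94, 0.97 and 0.84 in the knockdown, higher in all 4 libraries, by 0.29 ± 0.07 (adjusted p = 0.00886), and this call held when any 1 library was left out. All 4 genes with higher TE, lgg-1, lmp-1, ragc-1 and rheb-1, had lower mRNA and footprint changes that missed the threshold, from -0.05 to 0.12. TE and mRNA changes share the mRNA libraries, so these are not independent observations. For let-363 the mRNA was at 337, 326, 314 and 322 CPM in controls and 327, 328, 334 and 339.7 CPM in the knockdown, with overlap and a change of 0.03 ± 0.04. The footprints of let-363 were at 215, 216, 228 and 216 CPM and 192, 211, 212 and 199.6 CPM, lower in every knockdown library but by -0.10 ± 0.05, which missed the threshold (adjusted p = 0.153), and its TE change was -0.14 ± 0.06. The AMP-kinase gene aak-2 was at 128, 130.1, 126 and 126 CPM and 127, 129.7, 134 and 134 CPM in mRNA and at 171, 174, 163 and 169.6 CPM and 164, 169, 159 and 166 CPM in footprints. Both assays overlapped, with changes of 0.04 ± 0.05 and -0.04 ± 0.05, and -0.08 ± 0.06 in TE.

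Footprints fell for 6 genes in the E02H1.1 knockdown, of which vps-34, vps-15, epg-6 and atg-18 make or bind the lipid signal for a new autophagosome. EPG-6 and ATG-18 bind the lipid that VPS-34 makes. The footprints of epg-6 were at 256, 249.6, 277 and 246 CPM in controls and 203, 225, 224 and 226 CPM in the knockdown, a change of -0.23 ± 0.06 (adjusted p = 0.0105). Those of atg-18 were at 310.4, 306, 313 and 306 CPM and 261, 281, 273 and 282 CPM, a change of -0.17 ± 0.05 (adjusted p = 0.0108). Neither gene overlapped between the groups, and their mRNA fell by 0.15 and 0.12 on the log2 scale. The mRNA call for epg-6 was lost without E02H1.1 D, and that for atg-18 without Empty_vector A or B or E02H1.1 B. The footprints of daf-15 were at 160.1, 159.7, 158 and 153 CPM and 129.7, 134, 143 and 132 CPM, without overlap, with a change of -0.23 ± 0.05 (adjusted p = 0.00362), while its mRNA change of -0.08 ± 0.04 did not pass.

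The remaining 3 footprint calls were less stable. The footprints of vps-34 were at 128, 119.6, 111 and 125 CPM in controls and 109, 109, 106 and 105 CPM in the knockdown, a change of -0.17 ± 0.06 (adjusted p = 0.0434). That call was lost in 7 of 8 fits that left out 1 library, without Empty_vector A, B or D, or E02H1.1 A, B, C or D (adjusted p up to 0.119), and with library totals; the mRNA of vps-34 fell by 0.18 on the log2 scale. The footprints of atg-16.2 were at 51.1, 50.2, 53.3 and 48.3 CPM and 41.5, 48.7, 42.02 and 44.8 CPM, with overlap and a change of -0.19 ± 0.07 (adjusted p = 0.0453). It was lost in 6 such fits, without Empty_vector A, B or C, or E02H1.1 A, C or D (up to 0.125), under DESeq2, with library totals and with only the 2 groups compared. The footprints of vps-15 fell by 0.17 on the log2 scale, a call also lost with library totals, with only the 2 groups compared, and without Empty_vector B or C or E02H1.1 B, C or D.

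**Figure D4:**
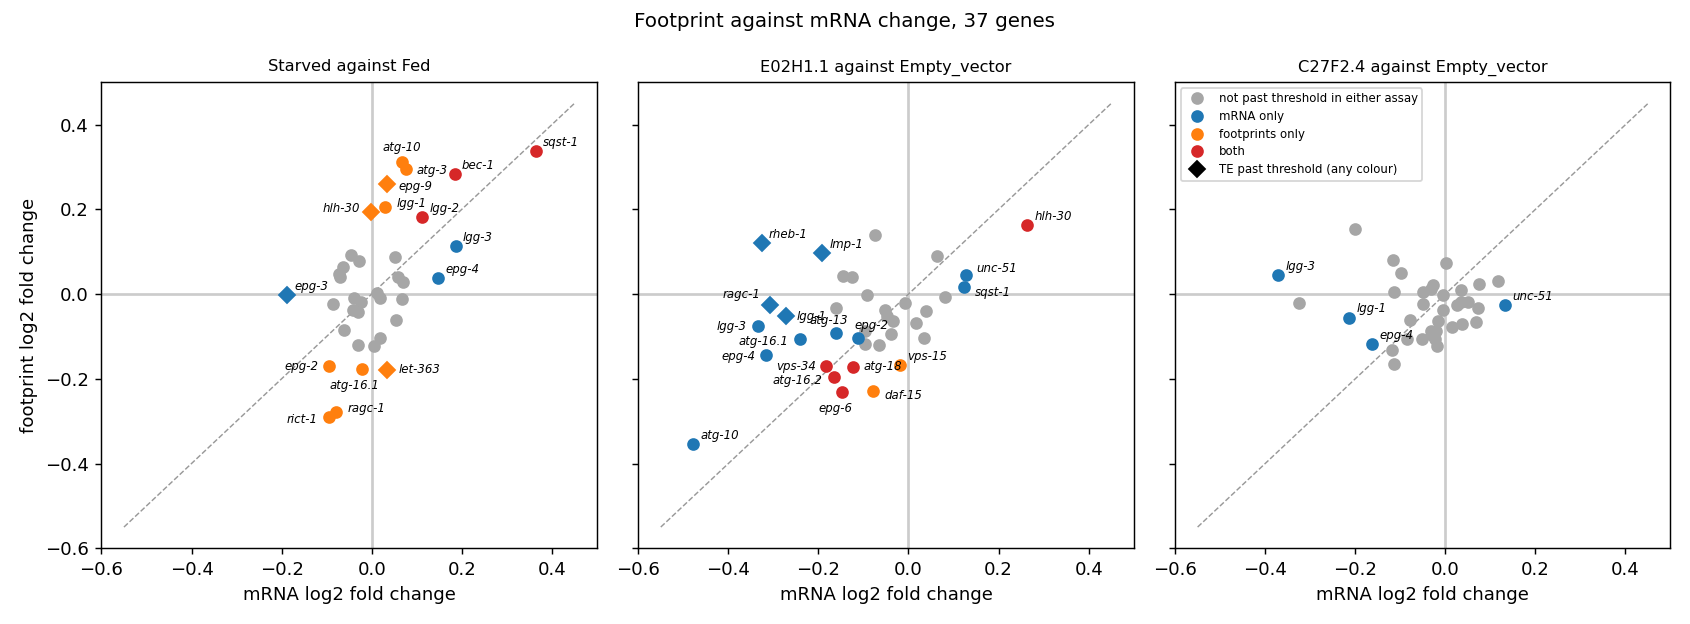
Footprint log2 fold change (vertical axis) against mRNA log2 fold change (horizontal axis) for the 37 genes in 3 comparisons, with the line of equal change dashed. Colour gives the assays past the threshold and diamonds mark TE past it. After starvation 10 genes passed in footprints alone and 3 in mRNA alone. In the E02H1.1 knockdown 2 passed in footprints alone and 12 in mRNA alone. Passing in a single assay was not counted over all genes. After starvation 11.8% of all genes tested rose and 10.2% fell in mRNA, and 13.9% and 14.7% did so in footprints. In the E02H1.1 knockdown these shares were 19.9% and 19.6% in mRNA, and 10.7% and 9.24% in footprints.

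Neighbouring genes of the pathway were counted in the same comparison. Of 13 further TOR genes, 2 rose and 4 fell in mRNA, 1 rose and 1 fell in footprints, and 1 fell in TE. The kinase gene akt-2 rose by 0.44 ± 0.08 in mRNA and 0.36 ± 0.10 in footprints, while lmtr-2, of the Ragulator that anchors Rag GTPases to the lysosome, changed by -0.36 ± 0.08 in mRNA. The GATOR subunit gene nprl-2, a restraint on TOR, had a footprint change of -0.51 ± 0.07 (adjusted p = 2.84e-05) and a TE change of -0.30 ± 0.10. Of 8 further AMP-kinase genes tested in mRNA, 2 rose and 2 fell, led by the subunit gene aakg-3 at 0.89 ± 0.23, and of 7 tested in footprints 1 rose, aakg-4, by 0.70 ± 0.22. Of 7 cargo selection genes 3 fell in mRNA, led by the mitophagy receptor gene fndc-1 at -0.34 ± 0.06 and sepa-1 at -0.26 ± 0.07, and 1 fell in footprints, epg-7, a scaffold for cargo, at -0.20 ± 0.05. Of 10 fusion genes 3 fell in mRNA, led by the fusion protein gene syx-17 at -0.32 ± 0.08, which rose in TE by 0.38 ± 0.11. Of 5 transcription factors, 2 rose and 1 fell in mRNA, with daf-16, the FOXO factor under insulin signalling, at 0.18 ± 0.05 and mxl-2 at -0.18 ± 0.07. In footprints 1 of the 5 fell, pha-4, by 0.18 on the log2 scale.

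Tissue markers moved here as well. All 8 body-wall muscle markers rose in mRNA, with sums of 2174 to 2769 CPM in Empty_vector and 3293 to 3613 CPM in E02H1.1 libraries, and 6 of 8 neuronal markers rose and 1 fell, with sums of 692 to 768 CPM and 801 to 853 CPM. Of 9 germline markers, 3 fell, with sums of 786 to 905 CPM and 718 to 773 CPM. Of 8 intestine markers, 4 rose and 2 fell in mRNA, and their sums of 651 to 763 CPM in Empty_vector and 857 to 959 CPM in E02H1.1 libraries did not overlap. Of 8 maternal and early embryo markers, 1 rose and 3 fell in mRNA, and of 6 hypodermis markers 2 rose and 1 fell. In footprints, 4 of 8 muscle, 2 of 8 neuronal, 2 of 8 intestine and 3 of 4 hypodermis markers rose, and 2 of 9 germline and 3 of 7 maternal markers fell. None of the markers in this paragraph was at 0 in every library of a group, and their part in the changes of these genes was not tested.

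In the C27F2.4 knockdown 4 of the genes passed, all in mRNA alone: lgg-1, lgg-3 and epg-4 fell and unc-51 rose. In mRNA, 1 of 37 rose and 3 fell, where 8.11% of 13637 genes rose and 5.56% fell, and the median was -0.03 beside -0.00 over all genes. With library totals 2 rose and 3 fell, since hlh-30 then passed. Without Empty_vector C, 3 fell and none rose, with unc-51 lost, and without C27F2.4 A, 2 rose and 2 fell, with epg-4 lost and hlh-30 gained; footprints and TE then still held 0. In footprints none passed, where 4.96% of 10736 genes rose and 2.11% fell; 5 had an unadjusted p under 0.05 in edgeR, and DESeq2 called 0. In TE none passed, where 0.364% of 10714 genes rose and 0.513% fell; 5 had an unadjusted p under 0.05, and DESeq2 called 0. Both knockdowns were set against the same Empty_vector libraries, so their changes are not independent of each other.

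The mRNA of lgg-3 was at 27.8, 29.8, 27.6 and 30.7 CPM in C27F2.4 libraries A to D, below all 4 of the Empty_vector libraries given above, with a change of -0.37 ± 0.09 (adjusted p = 0.00472). That of lgg-1 was at 1141, 1139.8, 1129 and 1149 CPM, again below every control, with a change of -0.21 ± 0.04 (adjusted p = 0.000866). In footprints the 2 genes did not pass, at 0.04 ± 0.08 and -0.06 ± 0.04, and lgg-1 footprints were at 1131, 1189, 1207 and 1189 CPM. The C27F2.4 footprint values of both genes overlapped those of the controls. TE changes were 0.42 ± 0.13 for lgg-3 (adjusted p = 0.0942) and 0.16 ± 0.06 for lgg-1 (adjusted p = 0.177). The lgg-3 change passed when same-named libraries were blocked as 1 culture, the only one of the 37 to do so.

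The other 2 calls in this knockdown were epg-4 and unc-51. The mRNA of epg-4 was at 87.8, 87.02, 99.3 and 89.02 CPM in C27F2.4 libraries, with library C close to the controls, and changed by -0.16 ± 0.05 (adjusted p = 0.0319). It was lost in 5 of 8 fits that left out 1 library, without Empty_vector B or D, or C27F2.4 A, B or D (adjusted p up to 0.114), and with only the 2 groups compared (-0.14). The mRNA of unc-51 was at 224, 222, 227 and 236 CPM in controls and 230.1, 255, 253 and 258 CPM in the knockdown, with overlap through C27F2.4 A, a change of 0.13 ± 0.04 (adjusted p = 0.0384). It was lost in 6 of 8 such fits, without Empty_vector A, B or C, or C27F2.4 B, C or D (adjusted p up to 0.120), and without a count filter.

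Among the other pathway markers, hlh-30 came nearest. Its mRNA was at 303, 309, 312 and 322 CPM, above every control library, and the change of 0.12 ± 0.04 missed the threshold (adjusted p = 0.0573); it passed under DESeq2, with DESeq2's size factors, with library totals and without C27F2.4 A. Its footprints were at 253, 259, 239 and 242 CPM, with a change of 0.03 ± 0.05 and overlap, and its TE change was -0.09 ± 0.06. The mRNA of sqst-1 was at 532, 569, 567 and 575 CPM and its footprints at 696, 716, 670.5 and 693 CPM. Both overlapped the controls, with changes of 0.07 ± 0.04 and 0.02 ± 0.04, and -0.05 ± 0.06 in TE. The mRNA of lgg-2 was at 425, 431, 439.6 and 452 CPM and its footprints at 315, 300.4, 314 and 319.9 CPM, with changes of -0.03 ± 0.04, 0.01 ± 0.05 and, in TE, 0.04 ± 0.05.

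For the kinases of nutrient sensing no change passed. The mRNA of let-363 was at 323, 344, 347 and 330.1 CPM and its footprints at 206, 206, 228 and 225 CPM, with changes of 0.05 ± 0.04, -0.02 ± 0.05 and, in TE, -0.07 ± 0.06. The mRNA of aak-2 was at 121, 135, 127 and 133 CPM and its footprints at 152, 152, 172 and 166 CPM, with changes of 0.02 ± 0.05, -0.08 ± 0.05 and -0.09 ± 0.06. Both genes overlapped the controls in both assays. Around the pathway, 1 of 8 further AMP-kinase genes rose in mRNA, aakg-3, by 0.76 ± 0.24, and 1 of 13 further TOR genes fell, lmtr-2, at -0.25 ± 0.08. Of 7 cargo selection genes 1 fell in mRNA, fndc-1, at -0.26 ± 0.06. In footprints aakg-4 rose by 0.66 ± 0.20, 1 of 7 AMP-kinase genes tested, and nprl-2 was the 1 of 13 TOR genes that fell, at -0.36 ± 0.06. None of 10 fusion genes and none of 5 transcription factors passed edgeR's threshold in mRNA or footprints; at an unadjusted p under 0.05 there were 0 and 1 in mRNA and 0 and 2 in footprints. In this knockdown too, all 8 muscle markers and 5 of 8 neuronal markers rose in mRNA, with sums of 2951 to 3295 CPM and 742 to 845 CPM. Of 8 intestine markers 4 rose and none fell in mRNA, with sums of 791 to 956 CPM beside 651 to 763 CPM in Empty_vector, and 2 of 6 hypodermis markers fell. In footprints 1 of 8 muscle, 1 of 8 neuronal and 1 of 8 intestine markers rose and none fell. No germline, maternal or embryonic sheath marker passed in either assay. The part of these markers was not tested.

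The knockdowns were compared directly, to test whether they differed from each other. In mRNA, 1 of 37 genes was higher in E02H1.1 than in C27F2.4 and 1 lower, where 1.63% of 13637 genes were higher and 1.64% lower. With library totals 1 was higher and 2 lower, under DESeq2 1 was higher and 3 lower, and with the replicate block 1 was higher and 6 lower. The mRNA of ragc-1 was at 76.7, 78.2, 77.5 and 78.2 CPM in E02H1.1 and 84.2, 88.8, 91.7 and 90.4 CPM in C27F2.4 libraries, a difference of -0.19 ± 0.05 (adjusted p = 0.0260). For hlh-30, with the levels given above, the difference was 0.15 ± 0.04 (adjusted p = 0.0424). In both genes the 2 knockdowns did not overlap, and in both the E02H1.1 libraries lay farther from the controls. Neither call held against leaving out 1 library: ragc-1 was lost without E02H1.1 A, B or D, or C27F2.4 B, C or D (adjusted p up to 0.0926), and hlh-30 without E02H1.1 A, B, C or D, or C27F2.4 B, C or D (up to 0.126). Without C27F2.4 A, 8 genes passed, 7 of them lower in E02H1.1.

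In footprints none of the 37 differed between the knockdowns, where 0.615% of 10736 genes were higher and 0.633% lower, and in TE none differed, where 0.00933% of 10714 genes were higher and 0.0373% lower. At an unadjusted p under 0.05 there were 3 genes in each, and DESeq2 called 0 in each. For lgg-1 and lgg-3, which fell in mRNA in both knockdowns, the mRNA differences were -0.06 ± 0.04 and 0.04 ± 0.09, with adjusted p of 0.429 and 0.843. For rheb-1 the mRNA difference was -0.23 ± 0.07 (adjusted p = 0.0539) and the TE difference 0.30 ± 0.12 (adjusted p = 0.480), so higher TE of rheb-1 was not shown to be particular to E02H1.1. Of the pathway genes outside the 37, 1 passed in mRNA, sepa-1, at -0.28 ± 0.07.

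**Figure D5:**
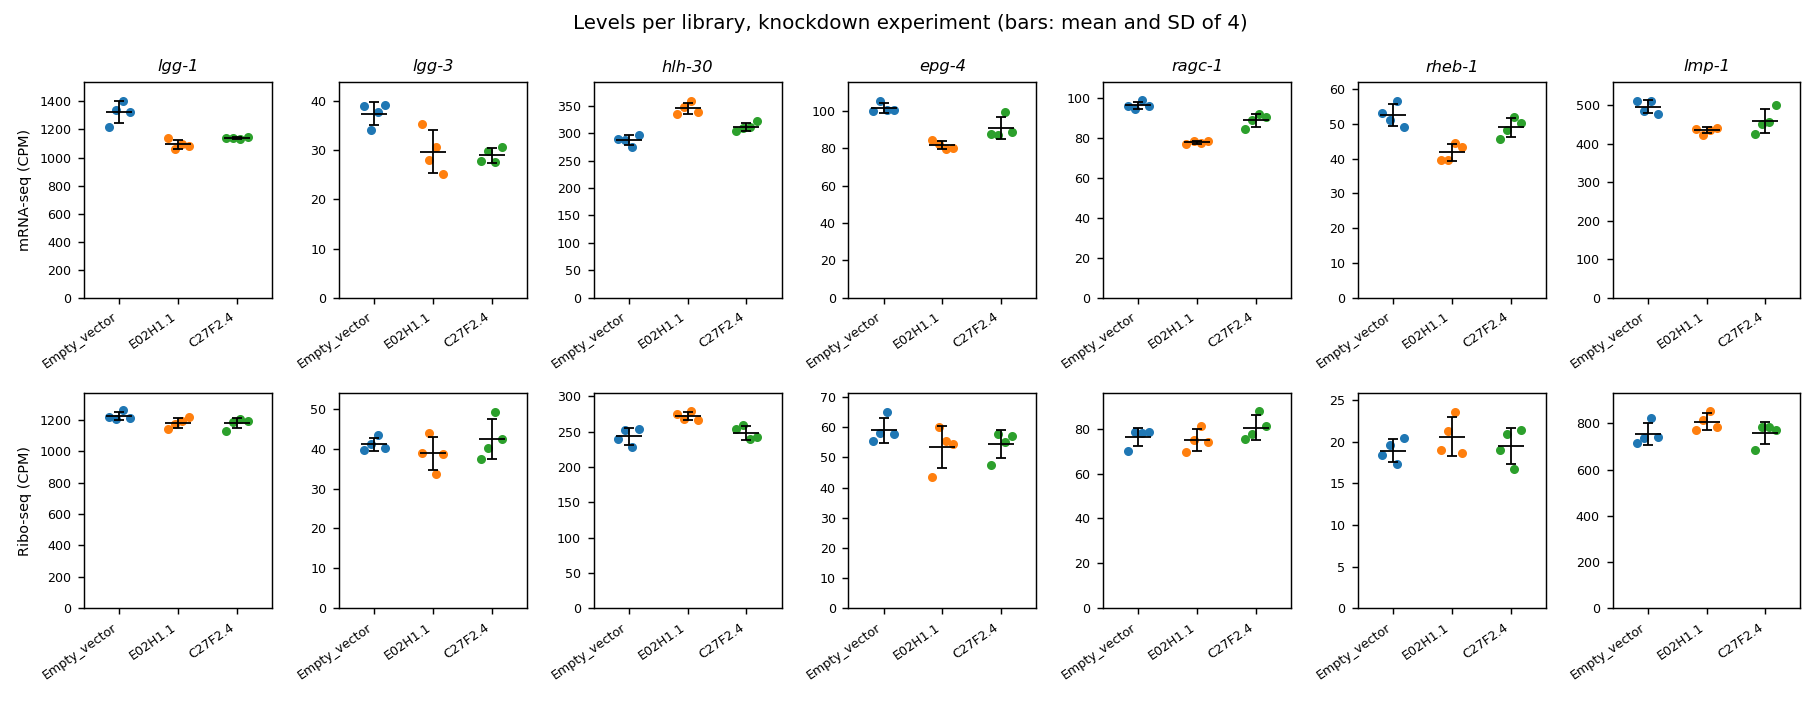
Levels in CPM (vertical axes, from 0) of 7 genes in each Empty_vector, E02H1.1 and C27F2.4 library, with mRNA-seq in the upper row and Ribo-seq in the lower row. Points are libraries and bars the mean and SD of 4. In mRNA the E02H1.1 points of ragc-1, rheb-1 and lmp-1 lie below the Empty_vector points; in footprints they overlap.

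Of the 37 genes, 11 (29.7%) passed in no measure of any of the 4 comparisons, where 27.6% of 10564 genes tested in all of them did the same. Among them are the conjugation genes atg-4.1, atg-4.2, atg-5 and atg-7, and the membrane suppliers atg-9 and atg-2. The rest are epg-5, the Rag GTPase gene raga-1, the S6 kinase gene rsks-1, and both AMP-kinase catalytic subunits. After starvation 16 of 37 genes (43.2%) passed in at least 1 of mRNA, footprints and TE, where 42.2% of 10572 genes tested in all 3 did. In the E02H1.1 knockdown 19 (51.4%) did, where 53.5% of 10714 genes did, and in the C27F2.4 knockdown 4 (10.8%), where 19.3% did. The gene sqst-1 rose in both assays in the Starved comparison and in mRNA alone in the E02H1.1 knockdown. The gene hlh-30 rose in footprints and not mRNA in the first, and in both in the second. These experiments were run and scaled apart, so their changes were not tested against each other.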

How the data were processed

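Polyadenylated RNA and ribosome footprints were sequenced from 48 samples, 24 per assay, grouped by the labels as Fed and Starved (6 per assay each) and Empty_vector, E02H1.1 and C27F2.4 (4 per assay each). The authors deposited 1 table per assay of whole-number read counts per gene, not normalized. Cutadapt is named, without a version, per the submitters' processing notes; an aligner, a counter and a genome build were not given in the sources used here. A deposited table of ratios was not used, since TE was recomputed from the counts. Gene symbols came from a table of WBGene identifiers.

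Counts were analysed in R 4.3.3 with edgeR 4.0.16: genes were filtered with filterByExpr (minimum count 10), scaled by TMM within each experiment and assay, and tested with robust quasi-likelihood fits over all groups of the experiment, with Benjamini-Hochberg adjustment over all genes tested and a threshold of 0.05. For TE the tested term was the assay by group interaction. Fold changes carry edgeR's default prior count, and each SE is the size of the log2 change divided by the square root of the F statistic. Per-library TE used CPM with 0.1 added. The procedure was tested on simulated data. The changes set there were in footprints alone and larger than any of the genes described here, so recovery at these sizes was not tested. Alternatives were DESeq2 1.42.0 (Wald test), its size factors, library totals, no filter, replicate blocks, only the 2 groups compared, and leaving out each library.

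Of 10 comparisons across groups of mRNA-seq libraries with one number or letter, 2 had correlated deviations over 0.1, and 2 of 10 in Ribo-seq. In both assays these were knockdown letters A (0.13 in mRNA-seq and 0.16 in Ribo-seq) and C (0.28 and 0.27). Letters B and D lay from -0.06 to 0.04. Fed and Starved libraries of one number lay from -0.05 to 0.07 in mRNA-seq and from -0.19 to -0.00 in Ribo-seq. The design describes the assays as matched, so same-named libraries were blocked as 1 culture in an alternative for TE. The deviations of same-named libraries correlated from -0.00 to 0.54, with 12 of 24 over 0.1. Of the 24 mRNA-seq libraries, 8 correlated best with the Ribo-seq library of the same name. None of the E02H1.1 libraries was among these 8, with correlations of 0.08, 0.03, 0.21 and 0.02 for A to D. The TE of a single library, its spread and its overlap rest on this pairing, while the TE change reported from the main fit does not. Knockdown columns are lettered and the labels numbered, and they were tied to groups and not to single samples. No 2 replicates agreed within sampling noise.

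The members and the gene lists were chosen with earlier results of these data known. Library values are given for members among the 5 largest changes past the threshold in each assay and comparison, and for lgg-1, lgg-2, sqst-1, hlh-30, let-363 and aak-2 whatever their values; others past it are given by fold change, and pathway genes outside the members only where they passed.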

Additional observations from a re-analysis of the deposited data

Results flagged for a closer look

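In 9 of 141 sets of member values from 1 group and assay, 1 library lay far from the others by Dixon's criterion at 95%; chance alone gives about 1 such set in 20. In Fed footprints rict-1 was 66.1 CPM in replicate 5 and 75.3 to 80.8 CPM in the others. In Fed TE aak-2 was 0.67 in replicate 6 and 0.53 to 0.58 in the others. In Empty_vector libraries epg-4 mRNA was 105.5 CPM in B (others 99.9 to 100.8), lgg-2 footprints 322 CPM in A (others 304 to 307), let-363 footprints 228 CPM in C (others 215 to 216) and lgg-1 TE 0.00602 in A (others -0.15 to -0.13). In E02H1.1 libraries sqst-1 mRNA was 569 CPM in C (others 584 to 585) and epg-6 footprints 203 CPM in A (others 224 to 226). In C27F2.4 libraries epg-4 mRNA was 99.3 CPM in C (others 87.0 to 89.02).

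The 2 knockdowns differed from each other in mRNA for 2 members by edgeR's quasi-likelihood test: ragc-1, with a log2 difference of E02H1.1 minus C27F2.4 of -0.19 (adjusted p = 0.0260), and hlh-30, with 0.15 (adjusted p = 0.0424). In each gene all 4 libraries of one knockdown lay on one side of all 4 of the other. Of 8 fits that left out 1 library, 6 lost the ragc-1 call (edgeR adjusted p up to 0.0926). For hlh-30, 7 of 8 such fits lost it (up to 0.126).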

How the results depend on the processing

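Of 180 counts of members past the threshold under the alternatives, 150 were within 1.5 times the count reported and 30 were not. Of 1260 values of named members under the alternatives, 1126 kept their direction and their side of the threshold, 18 that passed under neither setting changed sign, 105 kept their direction and lost it, 11 kept their direction and gained it, and none past the threshold reversed. For TE after starvation, 4 genes passed as reported, 8 with library totals and 2 without a count filter. With the replicate block by culture 7 passed, and 2 without Starved 1 and Starved 5. Leaving those 2 libraries out was chosen after seeing the data. Without them 7 genes passed in mRNA and 13 in footprints. For footprints of E02H1.1 against Empty_vector the count was 7, and 4 with library totals. Between the 2 knockdowns 2 genes passed in mRNA, 4 under DESeq2 and 7 with the replicate block; for TE of C27F2.4 against Empty_vector, 0 passed and 1 with the replicate block by culture. The cause of these shifts was not tested. With 1 library left out, the counts ran from 1 to 4 for TE after starvation, with 1 to 2 genes without Fed 2, 3, 4 or 5 or Starved 2, 4, 5 or 6. They ran from 4 to 6 for footprints of E02H1.1 (4 without Empty_vector C or E02H1.1 A, C or D) and from 2 to 4 for its TE (2 without E02H1.1 B). They ran from 2 to 4 for mRNA of C27F2.4 (2 without Empty_vector B or C27F2.4 B). Between the knockdowns they ran from 0 to 8 (0 without E02H1.1 A, B or D or C27F2.4 B, C or D, and 8 without C27F2.4 A). The replicate block moved no other count by over 1.5 times. Same-lettered knockdown libraries A and C had correlated deviations across groups, while no number of Fed and Starved libraries had a correlation over 0.1. Footprint libraries held fewer counts than mRNA libraries, which limits the precision of footprint and TE values of genes with few counts, such as atg-10.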

Other observations

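The order of translation efficiency among the 37 genes was similar at its ends in every group. The adaptor gene epg-2 had the highest mean TE in all 5 groups, at 1.38 ± 0.05 in Fed, 1.30 ± 0.03 in Starved (SD, n = 6), 1.26 ± 0.01 in Empty_vector, 1.27 ± 0.01 in E02H1.1 and 1.19 ± 0.05 in C27F2.4 (n = 4). The lowest mean was that of epg-9 in Fed, at -1.28 ± 0.12, and in E02H1.1, at -1.13 ± 0.19. It was that of rheb-1 in Starved, at -1.19 ± 0.26, in Empty_vector, at -1.46 ± 0.19, and in C27F2.4, at -1.33 ± 0.20. The number of the 37 above the median of all genes was 20 in Fed, 21 in Starved, 14 in Empty_vector and 15 in each knockdown. The 2 experiments were scaled apart, so these levels were not tested across them.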
